A study of Mus musculus with 9 samples.

Results

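The genes described here carry glucose into the cell, split it to pyruvate by glycolysis, and send pyruvate to lactate and out of the cell or into the mitochondrion. They were chosen by name from a list of 31 genes, and 30 of the 31 symbols were found in the gene count table, as 31 rows of 20627 features, since Aldoa has a pair of rows. Ldhb, the other main lactate dehydrogenase subunit gene, was not analysed here. The rule goes by gene name and by no measured value, but the list was chosen with earlier results of these data known. The 9 libraries were made from polyadenylated RNA of RAW264.7, 1 established mouse macrophage-like cell line, in 3 groups of 3. HG-SIG cells received 35 mmol/l glucose with sitagliptin phosphate, an inhibitor of dipeptidyl peptidase 4 used against type 2 diabetes, for 6 h. HG cells received 35 mmol/l glucose for 6 h, and NC cells are the control, for which the labels give no glucose concentration and no time. The groups include no osmotic control and no sitagliptin without added glucose, so glucose as a sugar and its osmotic load cannot be told apart in HG against NC.

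Glucose enters macrophages mainly through the facilitative transporter GLUT1, encoded by Slc2a1, and is trapped in the cell by phosphorylation by hexokinases. Phosphofructokinase commits it to glycolysis under the control of fructose 2,6-bisphosphate, which the PFKFB enzymes make and break down. Pyruvate is then reduced by lactate dehydrogenase and exported by the monocarboxylate transporters MCT1 and MCT4, or oxidized by the pyruvate dehydrogenase complex, which the PDK kinases switch off. Macrophages activated by bacterial products are known for high glycolytic flux, and many genes of the pathway are textbook targets of HIF-1 and MYC. In bulk RNA, fewer cells of a type and less RNA per cell cannot be told apart.

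Library totals lay between 23285821 and 31571578 counts, so a floor of 3 counts was worth 0.0950 to 0.129 CPM (a library's counts after scaling for its depth), and all 31 rows passed the filter on low counts that kept 13311 genes. The 10 macrophage markers were all expressed, with summed levels of 5764 to 5871 CPM in HG-SIG, 10687 to 11455 CPM in HG and 11729.9 to 12213 CPM in NC. The lists of fibroblast, lymphocyte and epithelial markers summed to at most 0.201 CPM in any library, and none of their genes passed the filter. The part of the lower macrophage marker sum of HG-SIG in the results below was not tested. The labels give the same batch for every sample and do not say whether replicates were separate cultures. The p-values therefore rest on the spread among the libraries as deposited, and that spread could be technical. HG-SIG against HG and HG against NC share the HG libraries, and HG-SIG against NC shares libraries with both, so agreement between these comparisons is partly built in.

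With sitagliptin added to high glucose, most of the pathway was lower than in high glucose alone, from hexokinase 1 to lactate export. In HG-SIG against HG, 21 of the 31 rows fell, where 26.8% of all genes tested were called lower, and 3 rose, where 25.7% were called higher. Genes are called at an adjusted p under 0.05 by edgeR's quasi-likelihood test. The median log2 fold change was -0.28 over the 31 rows and 0.01 over all genes tested. The 3 that rose were Pfkm, Pfkfb2 and Pdha1, and the 7 not called were Slc2a1, Hk2, Pfkl, Pfkfb3, Pfkfb4, Gapdh and Pdk1. The libraries of HG-SIG and HG did not overlap for 22 of the 31 rows, against 58.7% of all genes tested. Scaling by library size alone, without TMM, put the median of all genes at 0.17 and made 76.9% of all calls higher, against 48.9% with TMM. Under that scaling 15 of the rows were called lower and 4 higher. The rows that lost the call of a fall were Slc2a3, Pfkp, the second Aldoa row, Aldoc, Eno2 and Pdk3. The median of the rows minus that of all genes was -0.29 under either scaling. A change of scaling shifts all genes nearly alike, so this difference could hardly have changed and does not test the scaling.

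High glucose alone came with falls in the main glucose transporter, hexokinase 2, platelet phosphofructokinase, neuronal enolase and the lactate exporter MCT4. In HG against NC, 10 of the 31 rows fell, where 15.2% of all genes were called lower, and 1 rose, where 14.3% were called higher. The median log2 fold change was -0.08 over the 31 rows and 0.00 over all genes tested. The falls of Slc2a1, Eno2, Pfkp, Slc16a3, Hk2 and Pgk1 stayed called in each of the 6 fits that left out a library of HG or NC. The other falls were small: Gpi1 (-0.12) lost its call in each of the 6 fits, Pfkl (-0.23) without HG replicate 2 or any NC library, Aldoa (-0.15) without HG replicate 3, NC replicate 1 or NC replicate 2, and Tpi1 (-0.17) without HG replicate 2 or 3 or NC replicate 1 or 2. These 4 also lost their calls under library size alone, with adjusted p between 0.0516 and 0.101, so that 6 rows were called lower and 3 higher, and 58.9% of all calls were then higher, against 48.4% with TMM. Libraries of HG and NC did not overlap for 17 of the 31 rows, against 41.7% of all genes tested.

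In HG-SIG against NC, 25 of the 31 rows fell, where 28.7% of all genes were called lower, and 3 rose, where 29.9% were called higher. The median log2 fold change was -0.46 over the 31 rows and 0.02 over all genes tested, and Pfkfb4, Gapdh and Pdk1 were not called. Falls of more than 1 on the log2 scale were seen for 3 rows, Eno2, Slc2a1 and Slc16a3, where 5.60% of all genes fell that far. Libraries of HG-SIG and NC did not overlap for 27 of the 31 rows, against 65.9% of all genes tested. With library size alone 17 rows were called lower and 5 higher, 76.2% of all calls were higher against 51.0% with TMM, and the median of all genes was 0.21. The falls that lost their call under that scaling were those of Slc2a3, Slc2a6, Pfkl, Pfkfb3, the second Aldoa row, Aldoc, Slc16a1 and Pdk3. Together the 31 rows took 1.82% ± 0.0824 of all counts in HG-SIG, 2.20% ± 0.0555 in HG and 2.26% ± 0.0543 in NC (SD, n = 3 each).

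**Figure D1:**
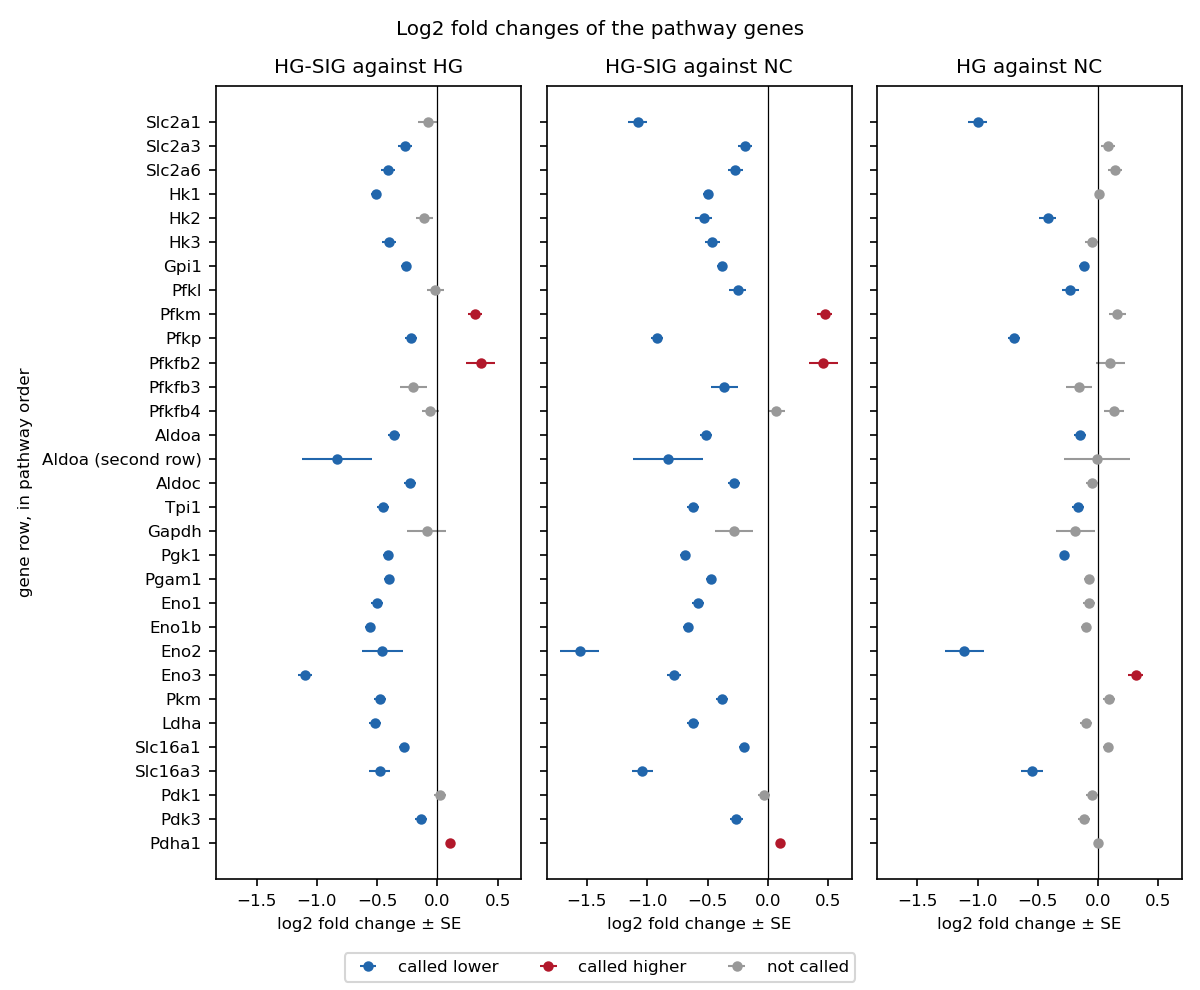
Log2 fold change of each of the 31 rows with its standard error in the 3 comparisons, in pathway order from top to bottom; blue points were called lower, red higher and grey not called. Most points lie left of 0 in both HG-SIG comparisons, while in HG against NC the points far from 0 are Slc2a1, Pfkp, Eno2, Slc16a3 and Hk2.

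The promoters of the 4 genes with the largest falls in HG against NC, and of Ldha as a gene called in HG-SIG against HG, are shown because many glycolytic promoters carry the letters of known response elements. Each is the 250 bases before the RefSeq transcription start in GRCm38.p6, written 5′ to 3′ on the gene's own strand. Capitals mark the hypoxia response core, ACGTG or GCGTG, searched on both strands (CACGT and CACGC on the opposite one), and the E-box CACGTG, which contains ACGTG.
Slc2a1, chr4:119108495-119108744, plus strand: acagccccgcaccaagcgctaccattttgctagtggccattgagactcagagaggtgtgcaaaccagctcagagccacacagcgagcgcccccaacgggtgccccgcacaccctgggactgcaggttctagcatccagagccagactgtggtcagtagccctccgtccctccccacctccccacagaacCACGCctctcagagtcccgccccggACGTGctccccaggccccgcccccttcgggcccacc
Eno2, chr6:124769674-124769923, minus strand: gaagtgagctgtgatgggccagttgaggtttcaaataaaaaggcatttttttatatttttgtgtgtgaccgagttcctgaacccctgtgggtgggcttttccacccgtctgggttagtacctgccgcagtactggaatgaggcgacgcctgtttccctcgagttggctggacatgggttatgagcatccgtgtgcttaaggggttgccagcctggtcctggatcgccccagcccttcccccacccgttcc
Pfkp, chr13:6648772-6649021, minus strand: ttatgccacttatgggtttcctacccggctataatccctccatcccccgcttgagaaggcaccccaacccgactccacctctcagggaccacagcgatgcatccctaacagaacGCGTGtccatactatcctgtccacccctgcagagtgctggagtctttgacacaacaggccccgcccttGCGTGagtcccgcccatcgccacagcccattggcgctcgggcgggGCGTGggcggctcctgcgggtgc
Slc16a3, chr11:120948817-120949066, plus strand: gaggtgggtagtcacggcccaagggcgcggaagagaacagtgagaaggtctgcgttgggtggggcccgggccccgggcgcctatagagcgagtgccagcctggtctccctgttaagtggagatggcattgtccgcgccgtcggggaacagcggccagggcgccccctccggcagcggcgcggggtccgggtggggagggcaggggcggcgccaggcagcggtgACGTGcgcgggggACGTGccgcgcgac
Ldha, chr7:46845554-46845803, plus strand: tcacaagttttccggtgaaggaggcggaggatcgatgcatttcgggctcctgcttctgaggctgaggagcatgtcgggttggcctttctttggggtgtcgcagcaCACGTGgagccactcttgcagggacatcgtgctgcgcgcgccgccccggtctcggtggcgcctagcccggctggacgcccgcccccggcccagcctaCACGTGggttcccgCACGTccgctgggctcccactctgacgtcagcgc
Slc2a1 holds cores 61 and 36 bases before its start, Pfkp holds 3, at 136, 68 and 23, and Slc16a3 holds 2, at 27 and 14. Eno2, which fell most in HG against NC, has no core in this window. The first Ldha promoter holds 5 overlapping or separate matches that include 2 E-boxes. No other promoter of the listed genes holds as many, so Ldha is not a typical example. Gpi1 and Tpi1, also called lower in HG-SIG against HG, have 0 cores in this window, and Eno3, which fell most there, has 1. Of the 43 promoters listed for 28 of the genes, 35 (81.4%) hold a core, against 12679 of all 32851 promoters (38.6%), and 5 (11.6%) hold an E-box, against 6.02%. The median GC content was 60.4% in the 43 promoters and 52.4% in all promoters, and the cores themselves contain CG. The carbohydrate response element was searched only as a pair of exact CACGTG E-boxes at a fixed spacing, found in 0 of the 43 and 0 of all promoters. This search could not find imperfect copies, so it does not show whether the element is present. A match is a description of the letters only.

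Glucose transporters differed among themselves. Slc2a1 (chromosome 4, 119108711 to 119137983, GRCm38), which encodes GLUT1, had 183, 142 and 156 CPM in HG-SIG, 174, 156 and 177 CPM in HG and 338, 323 and 354 CPM in NC. Every NC library stood far above all 6 others, and HG-SIG and HG overlapped. Slc2a1 fell in HG against NC (fold change 0.499, SE 0.08 on the log2 scale, adjusted p = 8.7e-07) and in HG-SIG against NC (log2 fold change -1.08 ± 0.08 SE, adjusted p = 1.2e-07). The difference of HG-SIG from HG was not called (-0.08 ± 0.08, adjusted p = 0.429), although without HG-SIG replicate 1 it was (adjusted p = 0.0363). Slc2a3, encoding the high-affinity transporter GLUT3, had 36.6, 36.4 and 38.0 CPM in HG-SIG, 46.6, 41.8 and 45.9 CPM in HG and 43.7, 38.7 and 44.2 CPM in NC. It fell in HG-SIG against HG (-0.27, adjusted p = 0.00148), with no overlap between those groups, while HG and NC overlapped. Slc2a6, encoding GLUT6, a transporter of lysosomal membranes in macrophages, had 23.2, 21.9 and 24.9 CPM in HG-SIG, 31.7, 31.7 and 29.5 CPM in HG and 27.2, 29.3 and 28.0 CPM in NC. All 3 groups were apart, with HG highest, and Slc2a6 fell in HG-SIG against HG (-0.41 ± 0.06, adjusted p = 8.3e-05). For Slc2a3 the fall in HG-SIG was -0.11 with library size alone (adjusted p = 0.121).

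Per kilobase of exon, Slc2a1 made up 78.5% ± 2.08 of the counts of the 3 transporter genes in HG-SIG, 75.2% ± 1.24 in HG and 86.8% ± 0.396 in NC (SD, n = 3 each). Its share was lower in every HG-SIG and HG library than in every NC library. The share of Slc2a6 was 12.6% ± 1.22 in HG-SIG, 15.1% ± 1.24 in HG and 7.92% ± 0.566 in NC. An exact two-sided permutation test of 3 against 3 libraries cannot go below p = 0.1, which these shares of Slc2a1 and Slc2a6 reached in each comparison.

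The hexokinases, which phosphorylate glucose, split by group. Hk1, the broadly expressed isozyme, had 152, 143 and 151 CPM in HG-SIG, 205, 215 and 216 CPM in HG and 206, 216 and 210.1 CPM in NC. The 3 HG-SIG libraries lay below all others and HG overlapped NC, so Hk1 fell in HG-SIG against HG (-0.51 ± 0.04, adjusted p = 3.3e-07) and was not called in HG against NC (0.01 ± 0.04, adjusted p = 0.907). Hk2, the inducible isozyme, showed another order, with 146, 118 and 127 CPM in HG-SIG, 143, 128 and 151 CPM in HG and 188, 183 and 194 CPM in NC. It fell in HG against NC (-0.42 ± 0.07, adjusted p = 7.6e-04) and in HG-SIG against NC (-0.53 ± 0.07, adjusted p = 3.8e-05), with every NC library above the rest. In HG-SIG against HG it was not called (-0.11 ± 0.07, adjusted p = 0.216), except without HG-SIG replicate 1 (-0.20, adjusted p = 0.0227). Hk3, typical of leukocytes, fell in HG-SIG against HG (-0.40 ± 0.06, adjusted p = 1.2e-04), at 35.0, 31.9 and 29.7 CPM in HG-SIG and 44.3, 41.8 and 41.5 CPM in HG, and 44.1, 46.3 and 42.3 CPM in NC. Of the per-length hexokinase counts, Hk1 took 36.4% ± 1.72 in HG-SIG, 41.4% ± 1.77 in HG and 36.2% ± 0.662 in NC, and Hk2 took 45.4% ± 1.76 in HG-SIG, 39.3% ± 1.99 in HG and 46.2% ± 1.37 in NC (SD, n = 3 each). The HG shares of both genes did not overlap those of either other group. By mean CPM, without a length correction, Hk1 was above Hk2 in HG-SIG (149 against 130.3), HG (212 against 141) and NC (211 against 188).

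Gpi1, which turns glucose 6-phosphate into fructose 6-phosphate, had 730.0, 672 and 673 CPM in HG-SIG, 839, 844 and 805 CPM in HG and 887, 918 and 895 CPM in NC. It fell in HG-SIG against HG (-0.26 ± 0.04, adjusted p = 1.6e-04), and all 3 groups were apart. At phosphofructokinase, the committed step, the isozymes went different ways. Pfkp, the platelet isozyme, had 218, 188 and 202 CPM in HG-SIG, 234, 233 and 242 CPM in HG and 407, 362 and 383 CPM in NC. NC lay far above, HG between and HG-SIG lowest, with falls in HG against NC (-0.70 ± 0.05, adjusted p = 8.5e-07), HG-SIG against HG (-0.22 ± 0.05, adjusted p = 0.00486) and HG-SIG against NC (-0.92 ± 0.05, adjusted p = 1.8e-08). The fall in HG-SIG against HG was -0.06 with library size alone (adjusted p = 0.399). Pfkl, the liver isozyme, was the most abundant of the 3 per kilobase of annotated exon (6675 bases, against 13401 for Pfkp). By mean CPM, Pfkp was higher in NC (384 against 277). Pfkl had 265, 207 and 227 CPM in HG-SIG, 246, 220.4 and 244 CPM in HG and 281, 270.0 and 281 CPM in NC. HG-SIG overlapped HG (-0.02 ± 0.07, adjusted p = 0.808) and lay below NC (-0.25 ± 0.07, adjusted p = 0.0103), a call lost with library size alone (-0.06, adjusted p = 0.488). The muscle isozyme Pfkm was the one that rose, with 20.9, 20.9 and 22.7 CPM in HG-SIG, 17.7, 16.4 and 17.9 CPM in HG and 15.3, 16.5 and 14.8 CPM in NC. Its log2 fold change was 0.31 ± 0.06 in HG-SIG against HG (adjusted p = 0.00129) and 0.47 ± 0.06 in HG-SIG against NC (adjusted p = 3.8e-05). Another annotated gene, Gm26513, overlaps 10.2% of the exonic length of Pfkm, and the strand of the counting is not given, so reads of the 2 genes may be mixed. The same may hold for Pfkp and Pitrm1, which overlaps 5.6% of the exonic length of Pfkp. Pitrm1 had 27039 counts over all libraries, against 70208 for Pfkp.

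**Figure D2:**
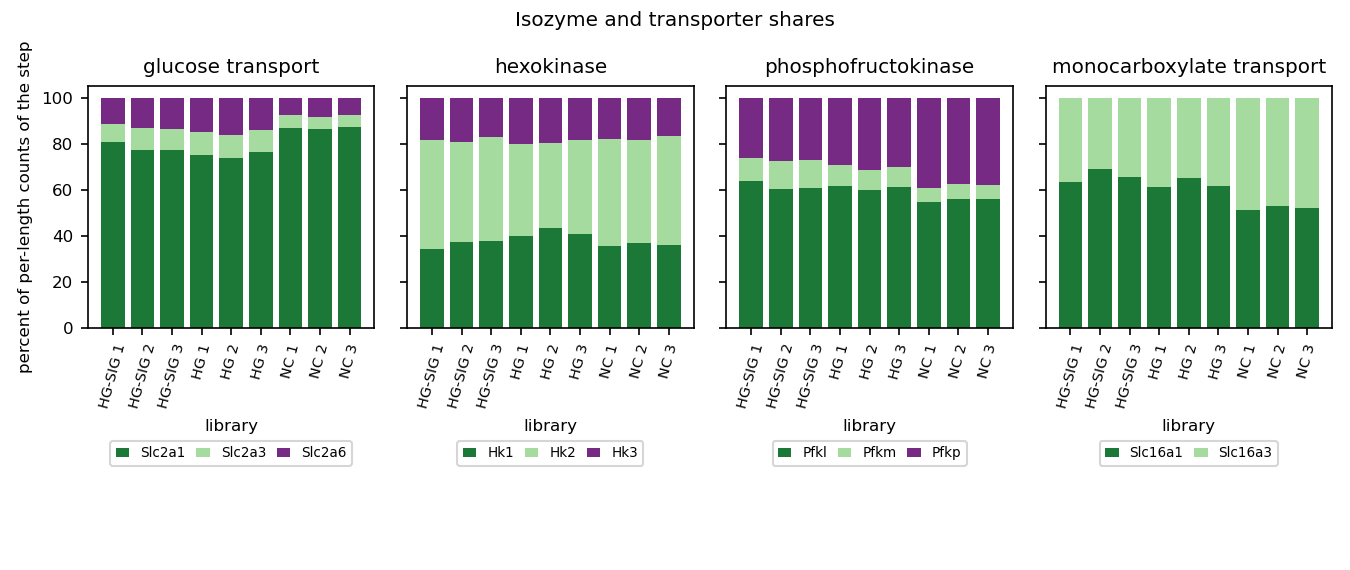
Share of each isozyme or transporter gene in the per-length counts of its step, in percent, for each of the 9 libraries; each bar is 1 library and its stacked colours are the genes named below the panel. The Slc2a1 and Slc16a3 parts are larger in the 3 NC libraries than in the 6 others, Hk1 is largest in HG, and Pfkp is smallest in HG-SIG.

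Of the per-length phosphofructokinase counts, Pfkp took 26.9% ± 0.657 in HG-SIG, 30.3% ± 1.04 in HG and 38.2% ± 1.09 in NC, and Pfkm took 11.5% ± 1.25 in HG-SIG, 8.91% ± 0.00912 in HG and 6.23% ± 0.516 in NC (SD, n = 3 each). For both genes the libraries of any 2 groups did not overlap. The PFKFB genes, whose products set the level of fructose 2,6-bisphosphate, were low, with a summed level of 11.9 ± 1.18 CPM per kilobase in HG-SIG, 12.4 ± 0.797 in HG and 12.7 ± 0.410 in NC. Pfkfb2 had 17.3, 15.4 and 20.4 CPM in HG-SIG, 11.8, 13.3 and 16.6 CPM in HG and 12.8, 12.8 and 12.9 CPM in NC. HG-SIG overlapped HG and lay above NC. Pfkfb2 rose in HG-SIG against HG (0.36 ± 0.12, adjusted p = 0.0211), but not without HG-SIG replicate 3, HG replicate 1 or HG replicate 2 (adjusted p up to 0.104). It shares 17.4% of its exonic length with Gm29427, which had 2 counts over all libraries against 3850 for Pfkfb2. Pfkfb3, the inducible isozyme with the highest kinase activity, had 51.0, 36.2 and 43.5 CPM in HG-SIG, 51.0, 44.3 and 54.6 CPM in HG and 59.2, 50.3 and 58.1 CPM in NC. It fell in HG-SIG against NC (-0.36 ± 0.11, adjusted p = 0.0116), a call lost with library size alone (-0.17, adjusted p = 0.191). In HG-SIG against HG it was not called (-0.20 ± 0.11, adjusted p = 0.151), but it was in the fit with the replicate number as a block (-0.20, adjusted p = 0.0102). Pfkfb4 was not called in any comparison (between -0.06 and 0.13). With library size alone it was called higher in HG-SIG against NC (0.26, adjusted p = 0.00742).

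In the middle of glycolysis, the aldolases and Tpi1 fell in HG-SIG. Aldoa, the main aldolase, had 1424, 1291 and 1303 CPM in HG-SIG, 1762, 1755 and 1635 CPM in HG and 1921, 1934 and 1862 CPM in NC. All 3 groups were apart, with a fall of HG-SIG against HG (-0.36 ± 0.05, adjusted p = 3.1e-05). Tpi1, which interconverts the triose phosphates, had 866, 775 and 751 CPM in HG-SIG, 1135, 1052 and 1081 CPM in HG and 1277, 1221 and 1169.8 CPM in NC. HG-SIG lay well below both other groups (-0.45 ± 0.05 against HG, adjusted p = 2.1e-05, and -0.62 ± 0.05 against NC, adjusted p = 8.0e-07). Aldoc, the brain-type aldolase, fell in HG-SIG against HG (-0.23 ± 0.05, adjusted p = 0.00152), at 67.3, 60.6 and 60.2 CPM in HG-SIG, 71.4, 73.6 and 75.6 CPM in HG and 76.8, 77.7 and 73.3 CPM in NC. With library size alone this was -0.07 (adjusted p = 0.244). The second Aldoa row, ENSMUSG00000114515, stands next to Aldoa and had few reads, with 0.631, 0.353 and 0.835 CPM in HG-SIG, 0.940, 1.06 and 1.28 CPM in HG and 1.06, 1.07 and 1.14 CPM in NC. HG-SIG lay below both other groups, which overlapped. Its fall in HG-SIG against HG (-0.83, adjusted p = 0.0297) held in 2 of 6 fits without a library. Gapdh had 54.3, 51.0 and 76.0 CPM in HG-SIG, 62.1, 51.3 and 80.2 CPM in HG and 70.8, 66.7 and 82.6 CPM in NC, with replicate 3 highest in each group and all groups overlapping. The annotation holds 78 genes nearly identical to Gapdh (at least 95% identity over at least 200 bases). Of these, 3 were in the count table, with 100 counts together over all libraries against 16996 for Gapdh. The treatment of shared reads is not given, and the values of Gapdh are uncertain. Its per-length level was 14.6 CPM per kilobase in HG-SIG, 15.6 in HG and 17.7 in NC, where Tpi1 had 289.7 in HG-SIG, 396 in HG and 444 in NC.

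Pgk1, the first ATP-making step, had 1261, 1144 and 1117 CPM in HG-SIG, 1577, 1559 and 1531 CPM in HG and 1905, 1886 and 1887 CPM in NC. The 3 groups were apart and in the same order throughout, with log2 fold changes of -0.41 ± 0.04 in HG-SIG against HG (adjusted p = 7.7e-06), -0.28 ± 0.04 in HG against NC (adjusted p = 3.2e-04) and -0.69 ± 0.04 in HG-SIG against NC (adjusted p = 3.5e-08). Pgam1, which moves the phosphate group of 3-phosphoglycerate, had 1075, 969 and 960.4 CPM in HG-SIG, 1354, 1297 and 1304 CPM in HG and 1422, 1376 and 1373 CPM in NC. Its fall of HG-SIG against HG was -0.40 ± 0.04 (adjusted p = 1.2e-05). HG lay just below NC (-0.08 ± 0.04, adjusted p = 0.233), which was not called.

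The enolases, which form phosphoenolpyruvate, gave both the largest fall and the one rise of HG against NC. Eno2, the neuronal isozyme, had 11.5, 7.67 and 11.2 CPM in HG-SIG, 13.4, 11.2 and 17.2 CPM in HG and 30.5, 25.3 and 33.6 CPM in NC. Every NC library was above all 6 others, and Eno2 fell in HG against NC (-1.11 ± 0.16, adjusted p = 1.7e-04) and in HG-SIG against NC (-1.56 ± 0.16, adjusted p = 3.0e-06). HG-SIG and HG overlapped, and the call there (-0.46 ± 0.17, adjusted p = 0.0408) was lost without HG-SIG replicate 2, HG replicate 1 or HG replicate 3, with adjusted p between 0.0154 and 0.16 over the 6 fits. Eno3, the muscle isozyme, had 17.3, 16.6 and 18.3 CPM in HG-SIG, 37.1, 39.4 and 35.3 CPM in HG and 29.2, 31.2 and 29.8 CPM in NC. It was the one member that rose in HG against NC (0.31 ± 0.06, adjusted p = 9.2e-04), and the one that fell most in HG-SIG against HG (-1.10 ± 0.06, adjusted p = 1.0e-08). It also fell in HG-SIG against NC (-0.78 ± 0.06, adjusted p = 1.6e-07). The 3 groups did not overlap. Eno1, the ubiquitous isozyme, and Eno1b are nearly identical in sequence, so the counting could have split reads between them. Their summed counts fell in HG-SIG against HG (-0.54 ± 0.04, adjusted p = 5.0e-07) and in HG-SIG against NC (-0.63 ± 0.04, adjusted p = 6.5e-08), and were not called in HG against NC (-0.09 ± 0.04, adjusted p = 0.133), and this sum was chosen after seeing the data. Counted alone, Eno1 had 682, 672 and 624 CPM in HG-SIG, 977, 967 and 856 CPM in HG and 979, 1012 and 972 CPM in NC. Eno1b had 830.1, 877 and 823 CPM in HG-SIG, 1276, 1259 and 1203 CPM in HG and 1365, 1343 and 1290.2 CPM in NC. For both genes every HG-SIG library lay below all HG and NC libraries.

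**Figure D3:**
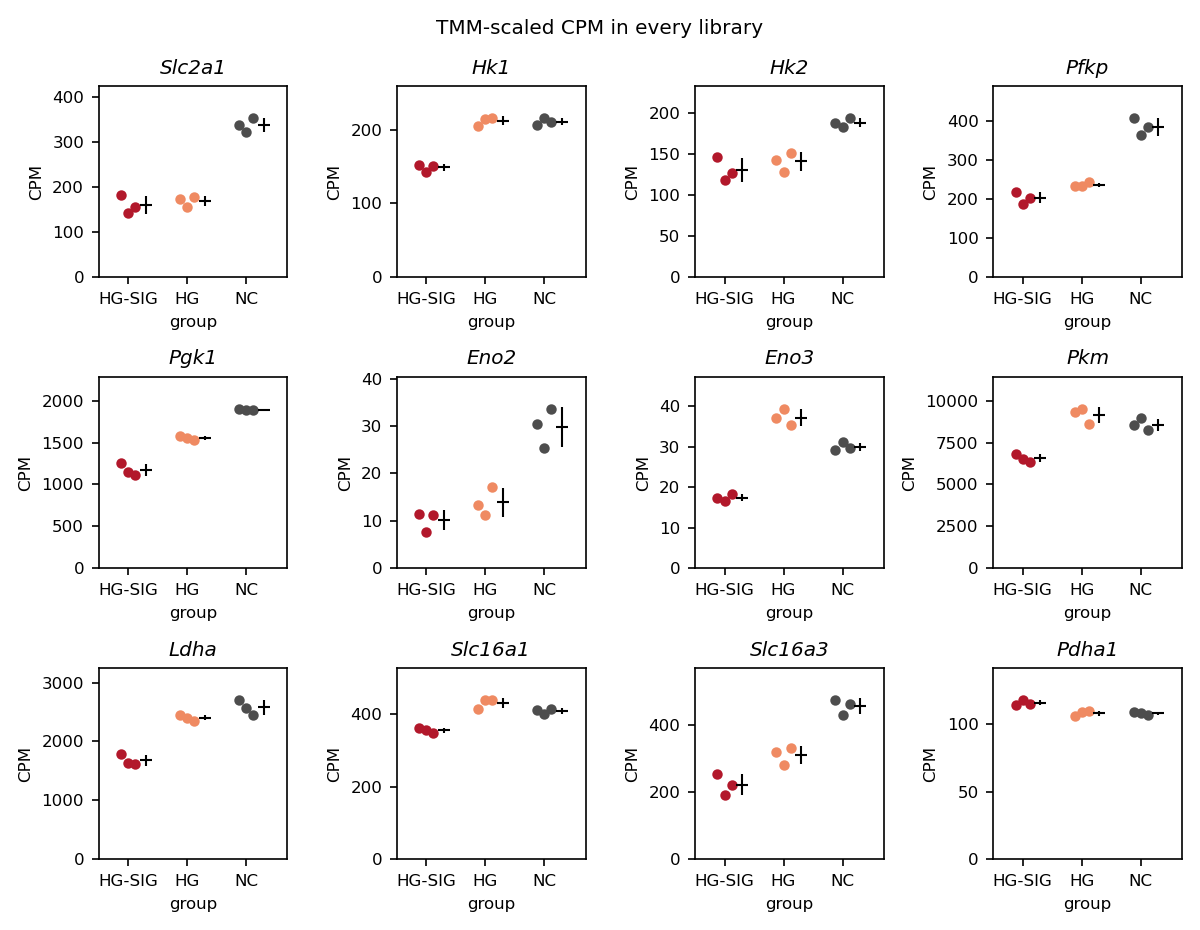
Level of 12 of the genes in CPM for each of the 9 libraries, with HG-SIG, HG and NC side by side on the horizontal axis; coloured points are libraries, and the black dash and line beside them are the group mean and SD, n = 3. Slc2a1 points of NC stand far above both other groups, while Eno3 is highest in HG.

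Pkm, the pyruvate kinase gene of macrophages, was the most abundant member, with 6837, 6537 and 6341 CPM in HG-SIG, 9326, 9514 and 8602 CPM in HG and 8531, 8958 and 8247 CPM in NC. Per kilobase of exon its level was 1314 ± 49.9 CPM in HG-SIG, 1829 ± 96.3 in HG and 1715 ± 71.6 in NC (SD, n = 3 each), the highest of the 31 rows in each group. HG-SIG lay below both other groups, which overlapped each other, so Pkm fell in HG-SIG against HG (-0.48 ± 0.05, adjusted p = 3.7e-06) and was not called in HG against NC (0.09 ± 0.05, adjusted p = 0.166). Ldha, which reduces pyruvate to lactate, had 1785, 1629 and 1613 CPM in HG-SIG, 2442, 2403 and 2354 CPM in HG and 2706, 2572 and 2450.1 CPM in NC. HG-SIG was again lowest (-0.52 ± 0.05 against HG, adjusted p = 1.9e-06, and -0.62 ± 0.05 against NC, adjusted p = 2.1e-07), and HG lay just below NC without a call (-0.10 ± 0.05, adjusted p = 0.127).

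The lactate exporters differed from each other in high glucose. Slc16a3, encoding MCT4, the low-affinity exporter of glycolytic cells, had 253, 192 and 220.4 CPM in HG-SIG, 319.7, 281 and 330.2 CPM in HG and 474, 429 and 461 CPM in NC. The 3 groups were apart, with falls in HG-SIG against HG (-0.48 ± 0.09, adjusted p = 4.8e-04), HG against NC (-0.55 ± 0.09, adjusted p = 3.5e-04) and HG-SIG against NC (-1.04 ± 0.09, adjusted p = 4.8e-07). Slc16a1, encoding MCT1, had 362, 358 and 348 CPM in HG-SIG, 415, 440.0 and 440.4 CPM in HG and 413, 399.9 and 415 CPM in NC. It fell in HG-SIG against HG (-0.28 ± 0.04, adjusted p = 4.3e-05) and was not called in HG against NC (0.08 ± 0.04, adjusted p = 0.135). Of the 2 genes' per-length counts, Slc16a3 took 34.1% ± 3.03 in HG-SIG, 37.4% ± 2.34 in HG and 48.0% ± 0.869 in NC (SD, n = 3 each), and its share was higher in every NC library than in the other 6 libraries.

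The listed genes for the entry of pyruvate into mitochondrial oxidation, Pdk1, Pdk3 and Pdha1, showed log2 fold changes between -0.26 and 0.10. Pdk1, a kinase that switches pyruvate dehydrogenase off and a known HIF-1 target, had 111, 99.0 and 102 CPM in HG-SIG, 101, 101 and 106 CPM in HG and 112, 102 and 105 CPM in NC, and was not called in any comparison (between -0.05 and 0.02). Under library size alone it was called higher in HG-SIG against HG (0.18, adjusted p = 0.00961) and against NC (0.16, adjusted p = 0.0168). Pdk3, another such kinase, had 40.1, 41.6 and 38.9 CPM in HG-SIG, 44.1, 44.8 and 43.9 CPM in HG and 51.1, 45.2 and 48.1 CPM in NC, with no overlap between groups. It fell in HG-SIG against HG (-0.14 ± 0.05, adjusted p = 0.03), a call that turned to 0.02 with library size alone. It fell in HG-SIG against NC too (-0.26 ± 0.05, adjusted p = 4.7e-04), a call lost with library size alone (-0.07, adjusted p = 0.205). Pdha1, the pyruvate dehydrogenase subunit that these kinases phosphorylate, had 114, 118 and 115 CPM in HG-SIG, 106, 109 and 109.6 CPM in HG and 109, 108 and 107 CPM in NC. It rose by a small amount in HG-SIG against HG (0.10 ± 0.03, adjusted p = 0.0242), a call held in 3 of the 6 fits without a library, and Map3k15 overlaps 16.1% of its exonic length.

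Summed per length over the rows of a step, pyruvate kinase had the highest level in every group and enolase the next, at 584 ± 18.0 CPM per kilobase in HG-SIG, 862 ± 32.9 in HG and 917 ± 21.6 in NC (SD, n = 3 each, here and below). Phosphofructokinase summed to 56.5 ± 5.53 CPM per kilobase in HG-SIG, 58.3 ± 2.60 in HG and 74.9 ± 2.32 in NC, so that HG-SIG and HG overlapped and NC lay above both. Glucose transport summed to 58.0 ± 6.08 CPM per kilobase in HG-SIG, 64.0 ± 3.35 in HG and 111 ± 4.63 in NC, again with NC apart. Monocarboxylate transport summed to 122 ± 6.48 CPM per kilobase in HG-SIG, 156 ± 4.96 in HG and 178 ± 6.12 in NC, with no overlap between groups. Exon length is the union of all annotated exons and may be longer than the expressed transcript, which lowers the per-length value.

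**Figure D4:**
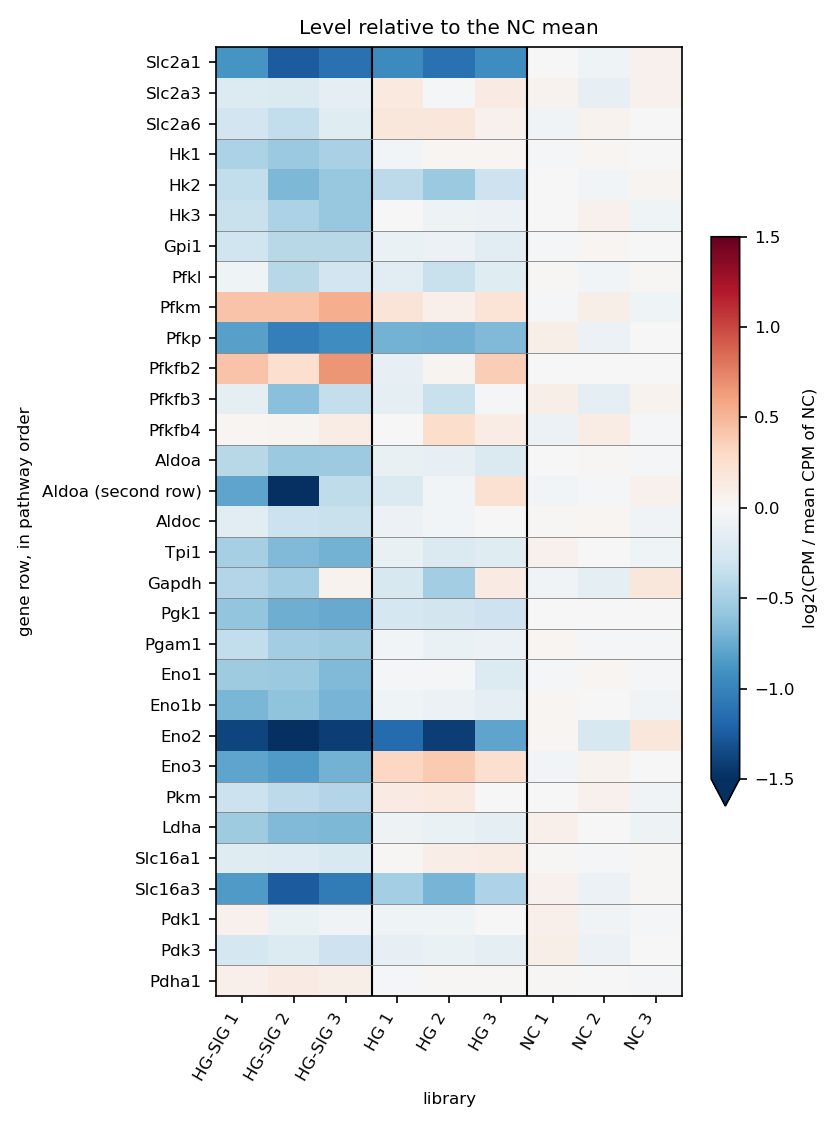
Level of each of the 31 rows in each library, as colour for log2 of its CPM over the mean CPM of NC, with rows in pathway order from top to bottom and the HG-SIG, HG and NC libraries from left to right. Slc2a1, Hk2, Pfkp, Eno2 and Slc16a3 are blue, that is below the NC mean, in all HG-SIG and HG libraries, and Eno3 is blue in HG-SIG and red in HG.

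Other genes around the pathway gave calls in both directions. Of 17 tested genes for other isoforms and side reactions, 8 rose and 3 fell in HG-SIG against HG, beside 25.7% higher and 26.8% lower over all tested genes (with library size alone, 10 rose and 1 fell). In HG against NC 4 rose and 5 fell, beside 14.3% higher and 15.2% lower over all tested genes. In HG-SIG against NC 6 rose and 6 fell, beside 29.9% higher and 28.7% lower over all tested genes (with library size alone, 9 rose and 4 fell). Over all 13311 genes tested, library size alone called 6093 higher and 1827 lower in HG-SIG against HG. In HG-SIG against NC that scaling called 6785 higher and 2120 lower. Slc2a9, a urate transporter, fell in HG-SIG against HG (-0.75 ± 0.07, adjusted p = 3.9e-06), with 12.8 ± 1.12 CPM in HG-SIG and 21.6 ± 0.400 CPM in HG. Bpgm, which makes 2,3-bisphosphoglycerate, rose there (0.36 ± 0.06, adjusted p = 1.5e-04). Pck2, mitochondrial phosphoenolpyruvate carboxykinase, fell in HG against NC (-0.88 ± 0.05, adjusted p = 4.6e-08) and rose in HG-SIG against HG (0.29 ± 0.05, adjusted p = 4.3e-04). Gpd1l, a relative of glycerol-3-phosphate dehydrogenase, rose in HG against NC (0.38 ± 0.04, adjusted p = 4.2e-06) and in HG-SIG against NC (0.55 ± 0.03, adjusted p = 3.3e-08).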

How the data were processed

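Gene counts, 1 column per library, were deposited as whole numbers. They were made with RSEM and Bowtie2 2.3.5 on mm10, per the submitters' processing notes, and may be rounded estimates that share reads between similar genes. The annotation release is not given in the sources used here, and neither is strandedness. Loci with no gene name held between 5.85% and 6.21% of each library and stayed in the tests.

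Counts were filtered with filterByExpr, scaled by TMM (a trimmed mean of log ratios between libraries) and modelled in edgeR 4.0.16 under R 4.3.3, with 1 mean per group over all 9 libraries. Adjusted p-values come from edgeR's quasi-likelihood test with Benjamini-Hochberg adjustment over 13311 genes, called under 0.05. Levels are TMM-scaled CPM computed from the deposited counts. Coordinates, exon lengths and overlaps came from GENCODE M21 (GRCm38, the assembly of mm10), and promoters from RefSeq. Alternatives used DESeq2 1.42.0, limma 3.58.1, other scalings, a replicate block and fits without each library. The edgeR script was tested on simulated counts.

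All 31 listed genes were named whatever their result, with every library's value for those called with an absolute log2 fold change over 0.5 and for the leading gene of each step. Further lists were named by up to 4 genes of smallest p per comparison. Members and lists were chosen with earlier results of these data known.

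Within each group, libraries varied beyond counting noise (chi-square per gene 2.82 to 9.14, highest for the pairs with HG replicate 3, at 8.31 and 9.14). Same-numbered libraries deviated together in HG-SIG against HG (correlations 0.15, 0.16 and 0.28), all over 0.1, although no label says what a number marks. The values and calls given are from the fit without a block. In HG-SIG against HG the blocked fit stands beside them where it changes a call. Changed calls in the other comparisons are given further below. The correlations were 0.08, 0.13 and 0.18 in HG against NC, and 0.08, 0.07 and 0.12 in HG-SIG against NC. These were not treated as pairs. The floor of 3 counts reflects counting error alone, because PCR copies are not separate molecules.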

Additional observations from a re-analysis of the deposited data

How the results depend on the processing

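Direction and call of nearly all results were kept with RLE size factors, DESeq2, no filter on low counts, and fits of only the 6 libraries compared. With library size alone, the genes called lower in HG against NC numbered 6 and those called higher 3, and 5 were called higher in HG-SIG against NC. With limma on log2(TPM + 1), 6 were called lower in HG against NC and 5 higher in HG-SIG against NC. In HG-SIG against HG limma called 14 lower and 4 higher. The falls of Slc2a3, Gpi1 (-0.06, adjusted p = 0.249), Pfkp, Aldoc, Eno2, Slc16a1 (-0.07, adjusted p = 0.151) and Pdk3 lost their call there. Library size alone and limma both leave out the composition factor of TMM, which was larger in HG-SIG. Whether this is the cause was not tested. Called falls that turned positive were Pdk3 in HG-SIG against HG (0.02 with library size alone, 0.06 with limma) and, with limma, Slc2a3 (0.05) and Slc16a1 (0.04) in HG-SIG against NC. Uncalled values also changed sign with library size alone: in HG against NC the second Aldoa row (0.02) and Pdha1 (0.03), in HG-SIG against HG Slc2a1 (0.08), Hk2 (0.05), Pfkl (0.14), Pfkfb4 (0.10) and Gapdh (0.07), and in HG-SIG against NC Pdk1 (0.16). With limma the second Aldoa row was at 0.02, Pdha1 at 0.03, Slc2a1 at 0.12, Hk2 at 0.09, Pfkl at 0.17, Pfkfb4 at 0.13, Gapdh at 0.11 and Pdk1 at 0.20 in the same comparisons. Without the filter Pdha1 was at 0.00 in HG against NC.

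Leaving out 1 library at a time, genes called lower numbered 19 to 22 in HG-SIG against HG, 23 to 26 in HG-SIG against NC and 6 to 9 in HG against NC, lowest without NC replicate 1. Genes called higher numbered 1 to 3 in HG-SIG against HG, where 1 remained without HG-SIG replicate 3 or HG replicate 1. They numbered 2 to 3 in HG-SIG against NC and 1 to 2 in HG against NC, where 2 were called without HG replicate 3. Uncalled values that crossed 0 in these fits ranged in HG-SIG against HG from -0.18 to 0.00 for Slc2a1, -0.13 to 0.06 for Pfkl, -0.12 to 0.01 for Pfkfb4, -0.29 to 0.10 for Gapdh and -0.03 to 0.05 for Pdk1. In HG-SIG against NC Pdk1 ranged from -0.08 to 0.01. In HG against NC the ranges were -0.01 to 0.03 for Hk1, -0.05 to 0.21 for Pfkfb2, -0.13 to 0.09 for the second Aldoa row and -0.02 to 0.01 for Pdha1. 

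With the replicate number as a block, 14 of the listed genes were called lower and 2 higher in HG against NC. The block called 22 lower and 3 higher in HG-SIG against HG, and 26 lower and 3 higher in HG-SIG against NC. Over all 13311 genes tested, it called 2372 lower and 2291 higher in HG against NC. These numbers were 3848 lower and 3715 higher in HG-SIG against HG, and 4054 lower and 4228 higher in HG-SIG against NC. In HG-SIG against HG, where same-numbered libraries deviated together, the block changed no call of a member other than that of Pfkfb3. In HG against NC the block called Pfkfb3 (-0.16, adjusted p = 0.0433), Gapdh (-0.20, 0.0195), Eno1b (-0.10, 0.0207) and Ldha (-0.10, 0.0177) lower. It also called Pkm higher there (0.09, adjusted p = 0.0303). In HG-SIG against NC the block called Gapdh lower (-0.29, adjusted p = 7.4e-04). Each of the 9 libraries correlated best with its own number, a hint from the data and not from the design. Isozyme shares without a length correction kept the direction of each difference except Pfkfb4 in HG-SIG against HG and Eno1 with Eno1b in HG against NC. With 3 libraries per group, exact tests of single values cannot pass 0.05.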

Other observations

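Genes that bring pyruvate into mitochondrial metabolism gave 5 rises and 1 fall among 11 tested in HG-SIG against HG, 6 rises and 0 falls in HG-SIG against NC, and 3 rises and 0 falls in HG against NC. Over all genes, 26.8% were called lower in HG-SIG against HG, and 25.7% were called higher there, 29.9% in HG-SIG against NC and 14.3% in HG against NC. With library size alone the rises numbered 8 in HG-SIG against HG, 11 in HG-SIG against NC and 4 in HG against NC. Over all 13311 genes tested, that scaling called 6093 higher in HG-SIG against HG, 6785 in HG-SIG against NC and 2480 in HG against NC. Pcx, pyruvate carboxylase, had 14.1 ± 0.293 CPM in HG-SIG, 11.1 ± 0.591 CPM in HG and 9.58 ± 0.818 CPM in NC (SD, n = 3 each). It rose in HG-SIG against HG (0.34 ± 0.07, adjusted p = 0.00197). Dlat, a core subunit of the pyruvate dehydrogenase complex, rose there too (0.17 ± 0.04, adjusted p = 0.00278), and Pdp1, a phosphatase that switches the complex on, rose in HG against NC (0.43 ± 0.08, adjusted p = 9.1e-04). Pdk2, another PDK kinase, rose in HG against NC (0.61 ± 0.20, adjusted p = 0.04) and in HG-SIG against NC (1.01 ± 0.19, adjusted p = 6.4e-04). Its mean was 1.96 CPM in HG-SIG and 0.964 CPM in NC. Pdp2, another such phosphatase, rose in HG against NC (0.25, adjusted p = 0.0129). It was the 1 fall in HG-SIG against HG (-0.19, adjusted p = 0.0275, and -0.03 with library size alone).

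Among 8 tested glycogen genes, 4 rose and 2 fell in HG-SIG against HG, beside 25.7% higher and 26.8% lower over all tested genes. In HG against NC 3 rose and 2 fell, beside 14.3% higher and 15.2% lower over all tested genes. In HG-SIG against NC 3 rose and 3 fell, beside 29.9% higher and 28.7% lower over all tested genes. With library size alone, 5 rose and 1 fell in HG-SIG against NC, beside 6785 higher and 2120 lower of all 13311 genes tested. Gys1, glycogen synthase, had 45.9 ± 4.54 CPM in HG-SIG, 57.4 ± 4.30 CPM in HG and 78.1 ± 4.23 CPM in NC (SD, n = 3 each), and fell in HG-SIG against NC (-0.77 ± 0.07, adjusted p = 1.2e-06) and in HG against NC (-0.45 ± 0.07, adjusted p = 4.0e-04). Pygb, a glycogen phosphorylase, rose in HG-SIG against NC (0.47 ± 0.03, adjusted p = 1.2e-07). Phka2, a regulatory subunit of phosphorylase kinase, rose in HG against NC (0.26 ± 0.04, adjusted p = 6.8e-04) and fell in HG-SIG against HG (-0.45 ± 0.04, adjusted p = 3.9e-06).

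Of 12 tested regulators, 3 rose and 2 fell in HG-SIG against HG, beside 25.7% higher and 26.8% lower over all tested genes, and 4 rose and 3 fell in HG-SIG against NC, beside 29.9% higher and 28.7% lower. In HG against NC 1 rose and 4 fell, beside 14.3% higher and 15.2% lower over all tested genes. With library size alone, 8 rose and 1 fell in HG-SIG against HG, beside 6093 higher and 1827 lower of all 13311 genes tested. Under that scaling 7 rose and 3 fell in HG-SIG against NC, beside 6785 higher and 2120 lower of all genes. For HG against NC it gave 2 rises and 4 falls, beside 2480 higher and 1731 lower of all genes. Hif1a, the oxygen-regulated subunit of HIF-1, had 134 ± 1.35 CPM in HG-SIG, 158 ± 3.76 CPM in HG and 193 ± 9.12 CPM in NC (SD, n = 3 each). It fell in HG against NC (-0.29 ± 0.04, adjusted p = 1.3e-04) and in HG-SIG against HG (-0.24 ± 0.04, adjusted p = 2.7e-04), the second of which was not called with library size alone (-0.08, adjusted p = 0.1). Myc had 0.230 ± 0.0864 CPM in HG-SIG, 2.57 ± 0.634 CPM in HG and 18.9 ± 1.66 CPM in NC. Egln1, an oxygen sensor that marks HIF-1 for destruction, fell in HG against NC (-0.50 ± 0.07, adjusted p = 9.6e-05). Arnt rose in HG-SIG against HG (0.32 ± 0.04, adjusted p = 3.5e-05) and in HG-SIG against NC (0.27 ± 0.04, adjusted p = 9.6e-05). Vhl fell in HG against NC (-0.24 ± 0.05, adjusted p = 0.00216) and rose in HG-SIG against HG (0.29 ± 0.05, adjusted p = 2.8e-04).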
